A study of Rattus norvegicus with 12 samples.

Results

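The mevalonate segment of sterol synthesis, the stretch that leads from HMG-CoA to squalene, was followed through 6 genes in the livers of alcohol-preferring rats. The genes were Hmgcs1, Pmvk, Mvd, Idi1, Fdps and Fdft1, chosen by name from a deposited table of 34391 transcripts of 24355 gene names. They accounted for 7 transcripts, 1 for each gene and 2 for Pmvk, and where a gene had 2, the one with the higher mean level stood for it. All 12 animals were female rats of the inbred alcohol-preferring strain iP10a. The 6 EtOH animals had free choice of 10, 20 and 30% ethanol (v/v) beside tap water for 23 weeks, and the 6 controls had tap water without ethanol for the same time. Both groups ate ad libitum, so food intake was not fixed by the design. The animals were 38 weeks old at collection, apart from EtOH 6 at 39 weeks. Because the strain is inbred and every animal was female, the values describe 1 genetic background and 1 sex.

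The segment turns a small acyl-CoA into the linear precursor of all sterols. HMG-CoA synthase builds HMG-CoA in the cytosol. After its reduction to mevalonate, phosphorylation and decarboxylation yield isopentenyl diphosphate, the isoprenoid building block. Isopentenyl units are then joined into farnesyl diphosphate, which is the last intermediate that sterols share with ubiquinone, dolichol and prenylated proteins. Squalene synthase commits it to sterols. In liver, the genes of this pathway are known targets of SREBP2, a membrane-bound transcription factor that is released when sterols are low and that works together with NF-Y, which binds the sequence CCAAT.

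The promoters of 4 of the 6 genes, Hmgcs1, Mvd, Idi1 and Fdps, were in the RefSeq table used here (build GRCr8). They are shown because all 6 genes were lower in the EtOH animals. The CCAAT box of NF-Y is in capitals on either strand (ATTGG where it lies on the opposite strand). Each window runs 5′ to 3′ from 250 bases before the transcription start to 50 bases after it, and the windows lie at chr2:53382054-53382353 on the plus strand for Hmgcs1, chr19:67414925-67415224 on the minus strand for Mvd, chr17:66547475-66547774 on the minus strand for Idi1 and chr2:176804767-176805066 on the minus strand for Fdps.
Hmgcs1: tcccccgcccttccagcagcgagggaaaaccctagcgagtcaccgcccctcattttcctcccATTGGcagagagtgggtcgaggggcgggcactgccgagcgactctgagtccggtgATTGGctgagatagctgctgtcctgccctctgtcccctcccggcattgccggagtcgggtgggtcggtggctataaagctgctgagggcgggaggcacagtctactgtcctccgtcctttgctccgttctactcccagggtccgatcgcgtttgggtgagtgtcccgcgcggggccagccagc
Mvd: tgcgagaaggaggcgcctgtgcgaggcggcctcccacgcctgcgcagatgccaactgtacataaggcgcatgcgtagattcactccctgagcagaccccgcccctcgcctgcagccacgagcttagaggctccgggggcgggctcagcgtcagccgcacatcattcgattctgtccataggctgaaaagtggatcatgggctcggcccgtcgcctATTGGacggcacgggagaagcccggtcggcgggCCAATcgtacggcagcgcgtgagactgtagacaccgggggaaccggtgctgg
Idi1: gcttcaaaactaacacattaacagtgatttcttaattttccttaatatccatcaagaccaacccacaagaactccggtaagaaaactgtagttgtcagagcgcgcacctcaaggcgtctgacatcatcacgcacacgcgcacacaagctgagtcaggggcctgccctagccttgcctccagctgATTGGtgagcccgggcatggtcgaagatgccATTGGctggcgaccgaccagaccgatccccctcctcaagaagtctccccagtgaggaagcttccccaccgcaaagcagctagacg
Fdps: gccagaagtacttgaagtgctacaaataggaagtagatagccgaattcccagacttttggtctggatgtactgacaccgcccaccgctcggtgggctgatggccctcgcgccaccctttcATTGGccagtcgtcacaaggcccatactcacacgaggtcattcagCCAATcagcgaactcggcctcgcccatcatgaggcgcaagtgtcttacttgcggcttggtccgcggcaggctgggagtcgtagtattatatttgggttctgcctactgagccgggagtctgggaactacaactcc

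All 4 windows held 2 matches to CCAAT. Of the 33469 promoters in the table, 37.5% held at least 1 such match and 11.2% held at least 2. In Hmgcs1 the matches began 188 and 133 bases before the start, and in Fdps 130 and 85 bases before it. The matches of Idi1 began 66 and 35 bases before the start, and those of Mvd 35 and 2 bases before it. A search for the letters TCACNCCAC, the core of a sterol regulatory element, on both strands gave 0 matches in these 4 windows, against 1.12% of all promoters with at least 1. A match describes the sequence only. Other spellings of the element were not searched, so 0 matches do not show that it is absent.

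One poly(A) RNA library was made per liver, and per the study's methods the barcoded libraries were pooled in a single lane. Levels are given as RPKM, the reads of a transcript divided by its length and by the mapped reads of the library. The RPKM values, and the means, sums, gaps and percents of control taken from them, were not normalized between livers. The log2 fold changes of single genes were taken after such normalization unless stated otherwise. Between 2610238 and 4318141 reads were recovered from the values of the controls (median 3305919), and between 3945593 and 6030028 from those of the EtOH animals (median 4302209), a difference with p = 0.0108 (two-sided exact permutation test). Control 6 was the deepest control and was deeper than EtOH 1, 2 and 6. Among markers of liver cell types, the 5 hepatocyte genes that were found were abundant in every liver, with a summed RPKM of 66407 to 93869 in controls and 75365 to 101259 in EtOH animals, and 1 of them, Cps1, was called higher in EtOH. Of 3 Kupffer cell markers, 2 were called higher, Clec4f and Cd163, with a summed RPKM of 66.9 to 104 in controls and 91.1 to 112 in EtOH animals. Both calls were lost with no normalization between livers (limma adjusted p = 0.0898 and 0.0608), and that of Cd163 also under an unmoderated test on square-root values (adjusted p = 0.0752). Limma called 0 of the 2 endothelial, 4 stellate, 3 bile duct and 3 lymphocyte markers found (1, 2, 0 and 0 at an unadjusted p below 0.05, which 15.5% of all tested transcripts had), and no marker that was found was at 0 in all 12 livers. The part of cell makeup in the differences below was not tested, and in bulk tissue fewer cells of a type cannot be told apart from less RNA per cell.

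All 6 genes of the segment were lower in the EtOH animals. Limma on quantile-normalized log2(RPKM + 0.5), adjusted by Benjamini-Hochberg over 21718 transcripts above 0 in at least 1 liver, called 6 of 6 lower at an adjusted p below 0.05. Over all tested transcripts, 1.29% were called lower and 1.13% higher. These include many at low levels, where a call is harder to reach. In a fit of only the 11086 transcripts at a mean RPKM of at least 1, 440 were called lower and 420 higher. The RPKM of every EtOH liver lay below that of every control for all 6 genes, a pattern that 2.43% of the tested transcripts showed. The median log2 fold change of the 6 was -1.44, with a range of -1.94 to -0.56, beside a median of 0.000190 over all transcripts tested. Summed over the 6 genes, the segment gave 881 ± 132 RPKM in controls and 355 ± 47.4 in EtOH animals (SD, n = 6 each), and the lowest control (666) was above the highest EtOH liver (426). These summed values carry no test. The study also ran qRT-PCR on these samples. It reported Mvd, Idi1 and Fdft1 as lower by that assay, and Hmgcs1 and Fdps as not significantly altered. Pmvk was not among the genes it assayed. The study's own sequencing analysis listed Hmgcs1, Mvd, Idi1, Fdps and Fdft1 as lower and Pmvk as not altered. Its fold changes for the genes it listed as lower were smaller than those given below.

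**Figure D1:**
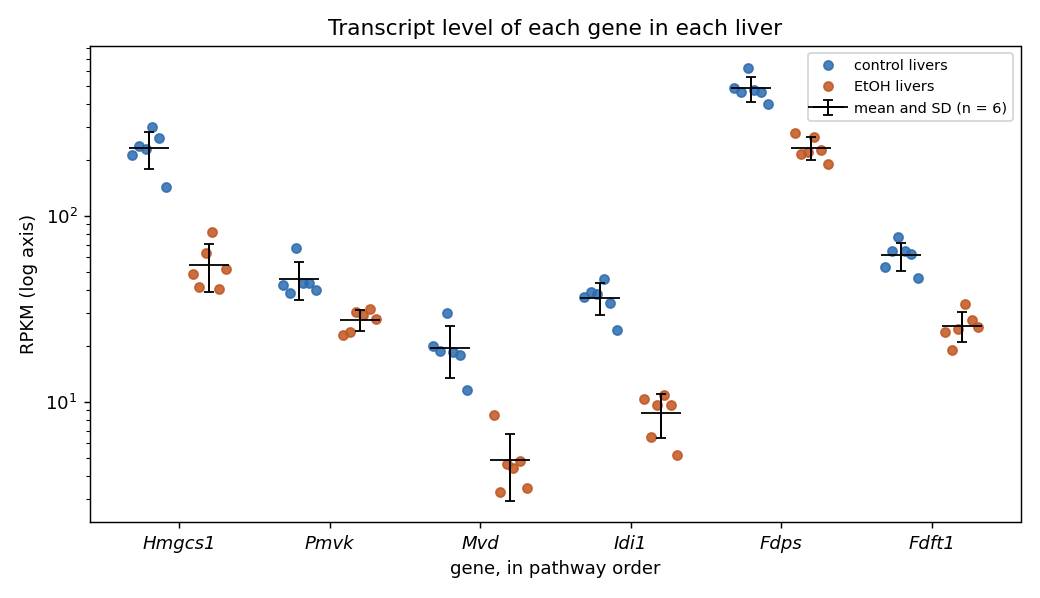
RPKM (log axis) of the 6 genes in pathway order, with 1 point per liver, controls in blue and EtOH animals in orange, and black bars for the mean and SD of 6 livers. For each gene the 6 EtOH points lie below the 6 control points, with the narrowest gap in Pmvk and the widest in Idi1.

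Hmgcs1, which encodes the cytosolic synthase that joins acetoacetyl-CoA and acetyl-CoA, was among the 3 genes with the largest falls, beside Mvd and Idi1. Its RPKM was 143 at the lowest, 234 at the median and 302 at the highest in controls, and 40.6, 50.4 and 82.2 in EtOH animals. The lowest control was 1.74 times the highest EtOH liver, so the groups were well apart. The means were 232 ± 53.0 and 54.7 ± 15.8 (SD, n = 6 each), which puts EtOH at 23.6% of control. The log2 fold change was -1.94 (SE 0.19, limma adjusted p = 0.000506), and only 15 of the 21718 transcripts had a lower one. The transcript, listed on chromosome 2 from 51737090 to 51753895 with no build named, was counted with 469 to 2779 reads per liver. Counting error alone would give a coefficient of variation of 2.13% in controls, where 22.9% was seen.

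Pmvk encodes phosphomevalonate kinase, which adds the second phosphate of mevalonate diphosphate. It had the smallest difference of the segment. Control livers ranged from 38.5 to 67.5 RPKM with a median of 43.3, and EtOH livers from 22.9 to 31.6 with a median of 28.7. The groups did not overlap, but the lowest control was only 1.22 times the highest EtOH liver. With means of 46.1 ± 10.8 and 27.7 ± 3.55 (SD, n = 6 each), EtOH stood at 60.1% of control, and the log2 fold change was -0.56 (SE 0.11, limma adjusted p = 0.0246). This call did not hold without EtOH 2 (log2 fold change -0.54, adjusted p = 0.0635) or under an unmoderated test on square-root values (adjusted p = 0.0604). Control 3 stood at 67.5 RPKM, away from the other controls, which lay between 38.5 and 43.9. Without it the log2 fold change was -0.47 (limma adjusted p = 0.0228). A second Pmvk transcript was seen in 2 livers only, with 7 reads in Control 4 and 3 reads in EtOH 2, and no difference can be read at this depth.

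Mvd, the gene of mevalonate diphosphate decarboxylase, was the lowest of the 6 in level and was strongly reduced. Controls lay between 11.6 and 30.2 RPKM (median 18.6) and EtOH animals between 3.27 and 8.48 (median 4.51). No EtOH liver reached the lowest control, and the gap between the groups was 1.37 times. The means of 19.5 ± 6.03 and 4.84 ± 1.89 (SD, n = 6 each) place EtOH at 24.8% of control, with a log2 fold change of -1.79 (SE 0.22, limma adjusted p = 0.00225). The highest EtOH value belonged to EtOH 1, and the other 5 EtOH livers lay between 3.27 and 4.83. When EtOH 1 was left out the log2 fold change was -1.96. Reads were few, 24 to 67 per EtOH liver, and counting error would give a coefficient of variation of 15.4% where 39.2% was seen.

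Idi1 encodes the isomerase that converts isopentenyl diphosphate to dimethylallyl diphosphate, the primer of chain growth. It showed the widest gap between the groups. RPKM was 24.3, 37.5 and 46.0 at the lowest, median and highest control, and 5.16, 9.60 and 11.0 in EtOH animals. The lowest control thus had 2.22 times the RPKM of the highest EtOH liver. Its means were 36.3 ± 7.12 and 8.70 ± 2.33 (SD, n = 6 each), or 23.9% of control, with a log2 fold change of -1.88 (SE 0.19, limma adjusted p = 0.000625). The transcript is listed on chromosome 17 from 72557198 to 72563168. Its close relative Idi2, which encodes a second isopentenyl diphosphate isomerase, was listed at 0 in all 12 livers.

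Fdps, for farnesyl diphosphate synthase, was the most abundant transcript of the segment in every liver. Control livers had 400 RPKM at the lowest, 469 at the median and 628 at the highest, and EtOH livers 191, 223 and 279. The groups stayed apart by 1.43 times. EtOH animals averaged 233 ± 32.9 against 486 ± 75.9 in controls (SD, n = 6 each), 47.9% of control, with a log2 fold change of -0.99 (SE 0.11, limma adjusted p = 0.00116). Its relative spread was the smallest of the 6 genes in controls, with a coefficient of variation of 15.6%, and was 14.1% in EtOH animals. Fdps and Pmvk lie on the same chromosome, with 477866 bases between the listed end of Fdps and the listed start of Pmvk.

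Fdft1 encodes squalene synthase, the enzyme at the end of the segment. It was measured at 46.5 to 77.0 RPKM in controls (median 63.6) and at 19.1 to 33.7 in EtOH animals (median 25.1). Every EtOH liver was below every control, with a gap of 1.38 times. The means were 61.4 ± 10.6 and 25.7 ± 4.81 (SD, n = 6 each), which is 41.8% of control, and the log2 fold change was -1.08 (SE 0.12, limma adjusted p = 0.00103). For each of the 6 genes a two-sided exact permutation test of the quantile-normalized values gave p = 0.00216, the smallest that regrouping 6 against 6 livers can give. Groups that do not overlap always give this p, so it restates their separation.

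The genes did not fall to the same extent. For each of the 15 pairs, the log2 ratio of the RPKM of both genes was taken within each liver, which leaves out any scaling between livers, and was compared between groups by a two-sided exact permutation test with Benjamini-Hochberg adjustment over the 15 pairs. For 10 pairs the ratio differed at an adjusted p below 0.05. The pairs share genes and livers, so the 15 comparisons are not independent of each other. Hmgcs1, Mvd and Idi1, which stood at 23.6 to 24.8% of control, each fell further than Pmvk, Fdps and Fdft1, which stood at 41.8 to 60.1%. These 9 pairs had adjusted p values from 0.00541 to 0.0162 in the exact test. The 10th was Pmvk with Fdft1, whose ratio rose by 0.54 in EtOH (SE 0.12, exact permutation adjusted p = 0.00722).

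The ratio of Hmgcs1 to Fdps gives an example across the segment. Its log2 value averaged -1.09 ± 0.34 in controls and -2.13 ± 0.37 in EtOH animals (SD, n = 6 each), without overlap, a change of -1.03 with a 95% interval of -1.51 to -0.57 by inversion of the permutation test. For Idi1 and Fdps, whose enzymes act in direct succession, the change was likewise -1.03, with an interval of -1.39 to -0.67 and no overlap. The ratio of Mvd to Fdft1 changed by -0.77 (95% interval -1.26 to -0.22), and here the groups overlapped. In all, 6 of the 15 ratios separated the groups without overlap.

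No difference in extent was seen among Hmgcs1, Mvd and Idi1. The change was -0.06 for Hmgcs1 to Mvd (95% interval -0.73 to 0.60, exact permutation adjusted p = 0.897). For Hmgcs1 to Idi1 it was -0.0042 (interval -0.42 to 0.43, exact permutation adjusted p = 0.983), and for Mvd to Idi1 0.06 (interval -0.39 to 0.51, exact permutation adjusted p = 0.897). These intervals still allow differences of up to 0.73 on the log2 scale. The ratio of Fdps to Fdft1 changed by 0.20 (interval -0.08 to 0.49, exact permutation adjusted p = 0.203). That of Pmvk to Fdps changed by 0.34, with an interval before adjustment of 0.02 to 0.65 and an exact permutation adjusted p of 0.0590. Without EtOH 1 it changed by 0.45 and passed (exact permutation adjusted p = 0.00325).

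**Figure D2:**
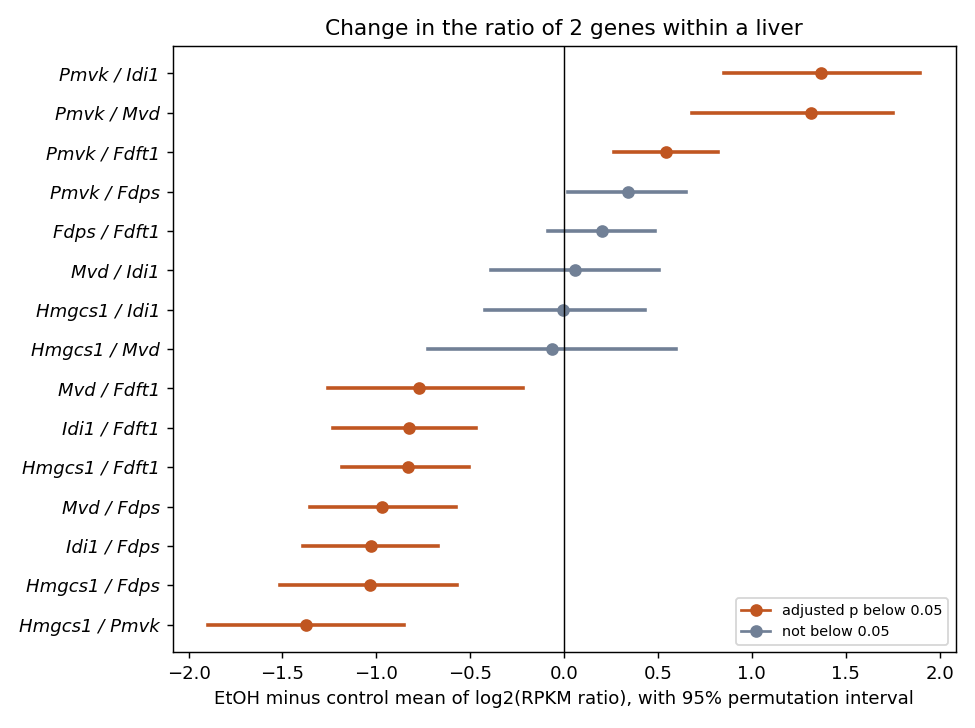
EtOH minus control mean of the log2 RPKM ratio within a liver for the 15 pairs of genes, with lines for the 95% interval from inverting the exact permutation test, and orange where the adjusted p is below 0.05. Ratios that set Hmgcs1, Mvd or Idi1 against Pmvk, Fdps or Fdft1 lie away from 0, and those among Hmgcs1, Mvd and Idi1 lie around 0.

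The make-up of the segment's transcripts differed accordingly between the groups. Fdps supplied 55.3 ± 3.95% of the summed RPKM in controls and 65.7 ± 3.90% in EtOH animals (SD, n = 6 each), with no overlap between 49.9 to 60.1% and 62.2 to 70.9%. Hmgcs1 went from 26.2 ± 4.30% to 15.3 ± 3.14% (SD, n = 6 each), also without overlap. Pmvk made up 5.22% in controls and 7.91% in EtOH animals on average, Fdft1 6.96% and 7.25%, Idi1 4.12% and 2.42%, and Mvd 2.17% and 1.35%. Shares of a sum depend on each other, and they were not tested separately.

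In controls the order of levels was Fdps, Hmgcs1, Fdft1, Pmvk, Idi1 and Mvd. Each gene exceeded the next within 6 of 6 livers, except that Pmvk exceeded Idi1 in 4 of 6. In EtOH animals Pmvk stood above Fdft1, in 4 of 6 livers, and the other places were the same. The neighbouring ranges of Fdft1 and Pmvk overlapped in both groups, as did those of Idi1 and Mvd, and those of Pmvk and Idi1 overlapped in controls.

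Animals of a group also differed from each other across the segment. Control 6 was the lowest control for 5 of the 6 genes, while for Pmvk only Control 2 was lower. Control 3 was the highest for Pmvk, Mvd, Fdps and Fdft1, and Control 4 for Hmgcs1 and Idi1. Control 3 also had the largest total RPKM over all transcripts, 577525, where the other controls had 535264 to 548924. Every EtOH liver had a smaller total than every control, 515781 to 532901. The part of this shift in the RPKM differences was not tested. Among EtOH animals, EtOH 4 was highest for Hmgcs1, Idi1 and Fdft1, EtOH 1 for Mvd and Fdps, and EtOH 5 for Pmvk. EtOH 6, the animal of 39 weeks, was lowest for Idi1 and Fdps.

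**Figure D3:**
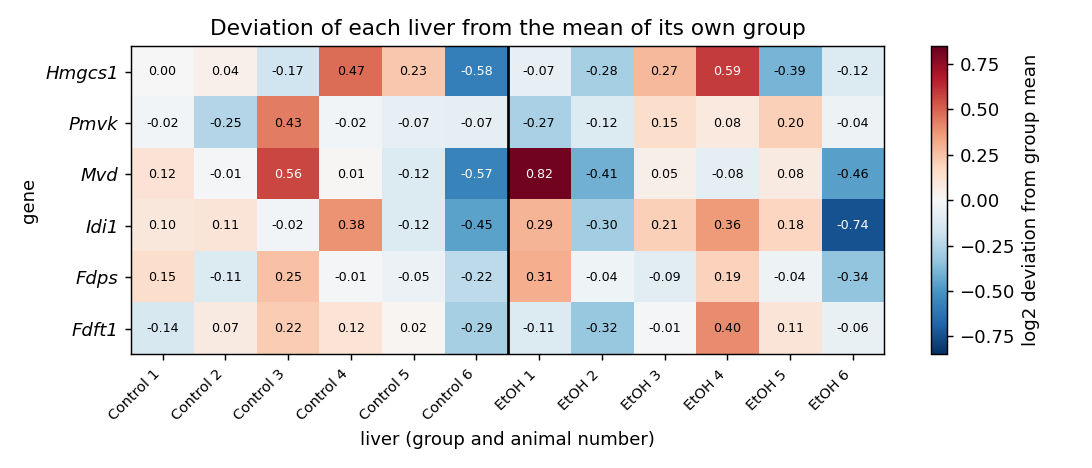
Quantile-normalized log2(RPKM + 0.5) of each gene in each liver minus the mean of its own group, red above and blue below the mean, with the value in each cell. Control 6 is below its group mean for all 6 genes, from -0.07 for Pmvk to -0.58 for Hmgcs1, and EtOH 6 ranges from -0.04 for Pmvk to -0.74 for Idi1.

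Whether the genes varied together within a group was examined over the 6 livers of each group, with 15 pairs per group and 30 relations in all. Of the 15 Pearson correlations, 13 were positive in controls (median r = 0.54, range -0.17 to 0.92) and 13 in EtOH animals (median r = 0.32, range -0.36 to 0.80). None of the 30 passed a two-sided exact permutation of pairings after Benjamini-Hochberg adjustment, and 2 had an unadjusted p below 0.05, both in controls. The genes of a liver share 1 library and its normalization, which enters every pair.

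Mvd and Fdps gave the highest correlation in controls, with r = 0.92 (n = 6, exact permutation p = 0.00694, adjusted p = 0.208) and rho = 0.94 (exact permutation p = 0.0167, adjusted p = 0.25). Without the 2 livers farthest from the median of Mvd, r was 0.78. In EtOH animals the same pair had r = 0.77 and rho = 0.54 (n = 6, exact permutation p = 0.0736 and 0.297, adjusted 0.368 and 0.711), and r was -0.06 without the 2 farthest livers. Hmgcs1 and Idi1 had r = 0.85 in controls (n = 6, exact permutation p = 0.0417, adjusted p = 0.367) with rho = 0.66 (exact permutation p = 0.175, adjusted p = 0.656). Without the 2 livers farthest from the median of Hmgcs1, r was -0.38. Leaving out the farthest livers narrows the range of 1 gene and leaves few livers. A lower r there cannot show what a relation rested on. The highest value in EtOH animals was that of Idi1 and Fdps, r = 0.80 (n = 6, exact permutation p = 0.0611, adjusted p = 0.367) with rho = 0.71 (exact permutation p = 0.136, adjusted p = 0.656), and r stayed at 0.78 without the 2 farthest livers. Over the 15 pairs, the median r of controls was -0.32 when the 2 farthest livers were left out of each pair, with 6 positive, and that of EtOH animals was 0.56, with 11 positive. Whether the correlations differed between the groups was not tested.

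Taken over all 12 livers as deviations from the group means, Idi1 followed the mean of the other 5 genes most closely (r = 0.78) and Pmvk least (r = 0.21). Fdps (0.72), Fdft1 (0.67), Mvd (0.58) and Hmgcs1 (0.44) lay between. The order depended on the group. In controls alone, Fdft1 (0.83), Mvd (0.81) and Fdps (0.75) lay above Idi1 (0.68), and in EtOH animals alone Idi1 was first (0.89). Pmvk was last in both (0.37 and 0.06). These values describe the libraries and carry no p.

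**Figure D4:**
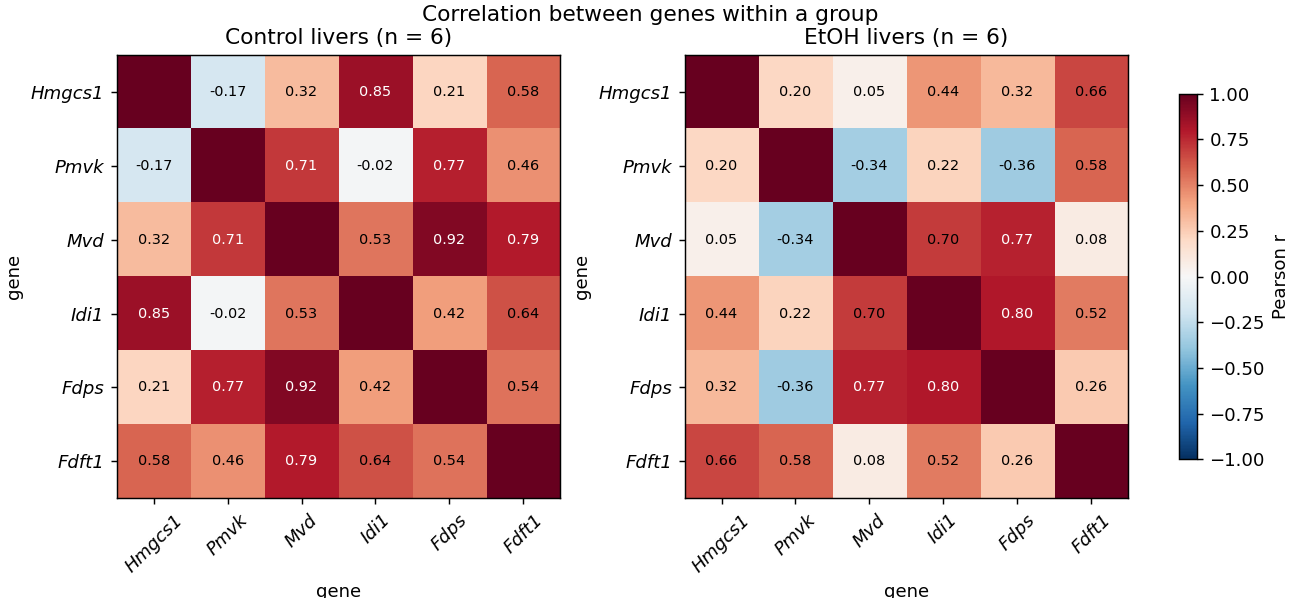
Pearson r between the genes over the 6 control livers (left) and the 6 EtOH livers (right), on quantile-normalized log2(RPKM + 0.5), from blue for -1 to red for 1. Controls range from -0.17 (Hmgcs1 with Pmvk) to 0.92 (Mvd with Fdps) and EtOH animals from -0.36 (Pmvk with Fdps) to 0.80 (Idi1 with Fdps).

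The rest of the sterol pathway moved in the same direction as the segment. Of 17 further pathway genes, 15 were matched, Cyp51 under its listed name CP51A_RAT, and 14 were above 0, of which 12 were called lower and 0 higher, with a median log2 fold change of -1.02. Sqle, the squalene epoxidase that takes up the product of Fdft1, went from 35.2 ± 8.31 to 7.41 ± 1.70 RPKM (SD, n = 6 each), with a log2 fold change of -2.04 (SE 0.16, limma adjusted p = 0.000207). Acat3, an acetyl-CoA acetyltransferase, had a log2 fold change of -1.72 (SE 0.16, limma adjusted p = 0.000474), near those of Hmgcs1, Mvd and Idi1, though the differences from these genes were not tested. Acat1, the mitochondrial thiolase, had a log2 fold change of -0.09 (limma adjusted p = 0.649) and Nsdhl, a sterol dehydrogenase, one of -0.32 (limma adjusted p = 0.0717), and neither was called. For Nsdhl every EtOH liver (109 to 135 RPKM) still lay below every control (154 to 179), while the ranges of Acat1 overlapped.

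Branches that use the products of the segment for other ends were not called in either direction. Of 7 such genes found, limma called 0, and 4 had an unadjusted p below 0.05, against 15.5% of all tested transcripts, with a median log2 fold change of -0.19 and log2 fold changes from -1.63 for Dhdds (SE 0.66, limma adjusted p = 0.255) to 0.44 for Pggt1b (SE 0.26, limma adjusted p = 0.464). Ggps1, which extends farnesyl diphosphate to geranylgeranyl diphosphate, was at 2.68 ± 0.538 RPKM in controls and 3.49 ± 0.308 in EtOH animals (SD, n = 6 each, limma adjusted p = 0.169).

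Among 7 regulators of the pathway, Srebf1 and Srebf2 were called lower and Insig2 higher. Srebf2, which encodes SREBP2, went from 17.7 ± 2.23 to 11.5 ± 1.69 RPKM (SD, n = 6 each), a log2 fold change of -0.46 (SE 0.09, limma adjusted p = 0.0186). Srebf1, whose products act mainly on fatty acid synthesis, had a log2 fold change of -1.22 (SE 0.26, limma adjusted p = 0.0301), and its call was lost under the unmoderated test on square-root values (adjusted p = 0.0510). Insig2, which holds the SREBP escort protein in the endoplasmic reticulum, had one of 0.32 (SE 0.08, limma adjusted p = 0.0457), and this call was lost with no normalization between livers (0.17, limma adjusted p = 0.335), with median-ratio scaling (0.26, limma adjusted p = 0.0989), with limma voom on recovered reads (0.25, adjusted p = 0.114) and under the square-root test (adjusted p = 0.0752). The escort Scap (-0.07, limma adjusted p = 0.695), Insig1 (-0.31, limma adjusted p = 0.529) and the proteases Mbtps1 and Mbtps2 (0.02 and 0.08, limma adjusted p = 0.938 and 0.886) were not called.

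Transcripts whose pattern over the 12 livers was most like that of the segment were sought with the group difference removed, as the Pearson r between group-centred values and the mean of the 6 genes, among the 5911 transcripts detected in every liver at a mean RPKM of 5 or more. The closest were Cyp51 (r = 0.93), Sqle (0.92), Sc4mol (0.91) and Acat3 (0.88). Cyp51 and Sc4mol encode enzymes that remove methyl groups from the sterol rings, and both were lower in EtOH, with log2 fold changes of -1.06 and -1.71 (limma adjusted p = 0.000287 each). They were followed by Def8 (0.87), Psma6 (0.85), Cdk10 (0.83), Med20 (0.83) and Nploc4 (0.80), which are not enzymes of sterol synthesis. Psma6, a proteasome subunit, had a log2 fold change of -0.21 (limma adjusted p = 0.0261), and the other 4 were not called. The likeness is a description over 12 livers.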

How the data were processed

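Hepatic poly(A) RNA of 6 EtOH and 6 control rats was sequenced in 101-nt paired-end reads. The authors mapped and counted them in CLCbio Genomics Workbench. The deposited table holds 1 RPKM value per transcript and liver. Genome build and annotation are not given in the sources used. The deposited fold changes, test statistics and p-values were not used. The RPKM of a transcript divides by library depth, so a group-wide shift in a few abundant transcripts can move all others.

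RPKM plus 0.5 was log2 transformed, quantile normalized and compared with limma 3.58.1 (R 4.3.3) with a mean-variance trend. The 21718 transcripts detected in 1 or more livers were tested, and a call required a Benjamini-Hochberg adjusted p below 0.05. A fold change on this scale understates that of low transcripts. It is also not on the scale of the percents of control, which used RPKM without normalization between livers. For Pmvk the log2 fold change was -0.56 in the main fit and -0.71 with no normalization. Ratios of genes within a liver used RPKM without a pseudocount. Whole reads were recovered for all 21718 transcripts (tolerance 0.01 reads) as the smallest whole numbers in the ratios of the RPKM values, and intervals of counting error do not include amplification. Python 3.11.15, numpy 2.4.6, pandas 2.3.3, scipy 1.17.1 and matplotlib 3.10.9 were used for the other steps. The procedure was tested on simulated data.

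The genes of the segment, the lists and the tests were chosen with earlier results of these data known. Named are the 6 genes, genes of the fixed lists on which a result turns, and the 10 transcripts most like the segment. Some genes that this rule takes are not reported here. The correlations of deviations of same-numbered animals, not limited to the segment, lay between -0.07 and 0.03, and those of other pairs between -0.07 and 0.07. For the 6 genes themselves, taking the animal number as a block lowered each standard error, that of Idi1 from 0.19 to 0.11. Whether same-numbered livers were linked in the segment was not tested. Alternatives were other pseudocounts (0.1 and 1), no normalization or median-ratio scaling, a minimum mean RPKM of 1, an unmoderated test on square-root values, limma voom on recovered reads, the animal number as a block and each liver left out in turn.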

Additional observations from a re-analysis of the deposited data

Results flagged for a closer look

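In Pmvk, the RPKM of Control 3 was 67.5, the highest of the 6 controls, and its distance to the next value was 0.816 of the range of the group, above Dixon's 95% critical value for groups of 6. In Mvd, the RPKM of EtOH 1 was 8.48, the highest of the EtOH animals, at 0.699 of the range from the next. Chance marks about 5% of groups in this way, and 12 groups (6 genes in 2 groups of animals) were examined. Neither animal stood out to this degree in any other of the 6 genes. Pmvk stayed called without Control 3, with a log2 fold change of -0.47, and Mvd stayed called without EtOH 1, with -1.96.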

How the results depend on the processing

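Hmgcs1, Mvd, Idi1, Fdps and Fdft1 were called lower under each of the 20 alternatives run. Pmvk was called lower under 18, and not under the unmoderated square-root test (log2 fold change -0.56) or without EtOH 2 (-0.54). Over the leave-one-out fits its log2 fold change ran from -0.61 to -0.47, and 5 to 6 of the genes were called. The second Pmvk transcript, seen in 2 livers, reversed to 0.23 without Control 4. It ran from -0.42 to 0.23 over the leave-one-out fits and was -0.50 with limma voom. The count of transcripts called depended on the processing, from 526 to 860 with a mean RPKM of at least 1, 322 under the square-root test, 511 with limma voom and 212 to 656 with 1 liver left out. Counts lower by a factor of over 1.5 came without Control 2 (275), Control 4 (285), EtOH 2 (212), EtOH 3 (252), EtOH 4 (295) or EtOH 5 (298). The cause of these shifts was not tested. Of the calls, 53.4% were lower in EtOH, against 83.7% with no normalization between livers, 63.5% with median-ratio scaling and 64.6% with the block. With no normalization the median log2 fold change of transcripts at a mean RPKM of 1 or more was -0.08.

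With the animal number as a replicate block, 113 transcripts were called, 6 of the 6 genes among them (Pmvk adjusted p = 0.0493). The same 10 ratios differed, each with an adjusted p of 0.0469 (exact sign flips of same-numbered animals). That is just under the threshold, and flips of 6 differences cannot give a smaller unadjusted p. The block left 10 of the 12 calls in the rest of the sterol pathway, 0 of the 3 among regulators, and 0 of the 3 among cell type markers (Cps1, Clec4f and Cd163). Of the 12 livers, 1 correlated best with the liver of its own number.

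The ratios among Hmgcs1, Mvd and Idi1 changed sign with 1 liver left out, from -0.20 to 0.14 for Hmgcs1 to Mvd, -0.14 to 0.11 for Hmgcs1 to Idi1 and -0.057 to 0.18 for Mvd to Idi1 (-0.057 without EtOH 1), and were not called. Between 10 and 11 ratios differed. The median correlation of controls was 0.71 with no normalization and 0.64 with median-ratio scaling, and -0.32 without the 2 farthest livers. That of EtOH animals went from 0.32 to 0.56 without them. Reads were fewest for Mvd and Idi1 in EtOH animals, with as few as 24 and 28 in a liver, and for the second Pmvk transcript, which depth leaves unresolved.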
